A study of Mus musculus with 9 samples.

Results

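The 3 arrays hybridised with RNA from neonatal mouse ovaries cultured in medium with 0.01% acetone, the vehicle, are described on their own, as the baseline of the cultured ovary. They were chosen by their titles and are 3 of the 9 arrays of the series. The others hold ovaries given DMBA (7,12-dimethylbenz-[a]anthracene) at 50 nM (3 arrays) or BaP (benzo[a]pyrene) at 1 uM (3 arrays). These enter the joint normalization of the 9 arrays and the naming of probes. Their values are given only where the spread between arrays is set beside that of acetone, and for some genes with the largest spread. Every group came from Swiss mice of postnatal day 3 to 4, whose ovaries were trimmed, floated on inserts and kept for 4 days (96 hours). All groups received the same medium, with 5% fetal calf serum, insulin, transferrin and selenium, basic fibroblast growth factor at 40 ng/ml, leukemia inhibitory factor at 50 ng/ml and stem cell factor at 25 ng/ml. No ovary without acetone and none taken fresh from the animal is used here, so an effect of the vehicle or of culture has nothing to be set against. Nothing in the labels tells if replicate arrays stem from different animals, pooled ovaries or independent cultures, so the spread between them may be technical, and 3 arrays limit the precision of every value.

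The neonatal ovary is rich in primordial follicles, each an oocyte arrested in meiosis and wrapped by a few flat pregranulosa cells, and most of them rest until a signal through the PI3K pathway activates them. Once a follicle grows, its oocyte makes a zona pellucida and secretes GDF9 and BMP15, and its granulosa cells make AMH, while theca cells that produce androgen appear later. Around the follicles lie stroma, vessels, macrophages and a covering of surface epithelium. In RNA from whole organs, fewer cells of a type and less RNA per cell cannot be told apart.

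Levels are log2 signals after background correction and quantile normalization, for 17889 genes, each represented by its brightest probe on the acetone arrays. Mean levels ran from 5.71 to 14.44, with a median of 6.44. A percentile gives the share of all genes at or below a gene's mean level. Probes differ in how well they bind, so a percentile orders probe signals and not amounts of RNA. With no detection p-values in the table, a dim level was set on each array at the 95th percentile of 1257 olfactory, vomeronasal and taste receptor genes, whose known place is in sensory epithelia. It lay at 6.20, 6.18 and 6.20 on acetone replicates 1, 2 and 3. On every acetone array 9785 of 17889 genes (54.7%) exceeded it, and 15 of the receptor genes (1.19%) did. Each count of list members further on is to be read beside that 54.7%, and each count in the brightest 10% of genes beside 10%.

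**Figure D1:**
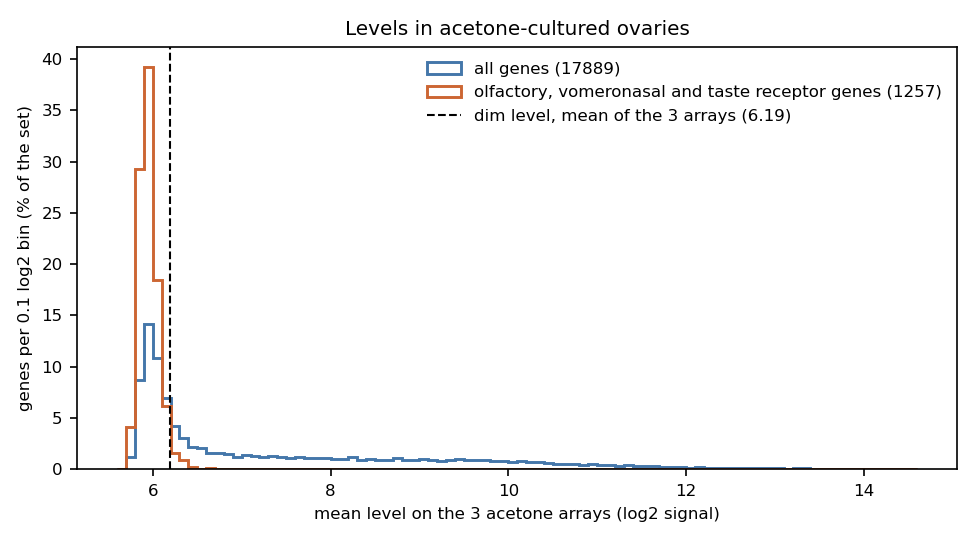
Distribution of mean levels on the 3 acetone arrays (x axis, log2 signal, y axis, percent of each set per bin) for all 17889 genes and for the 1257 olfactory, vomeronasal and taste receptor genes, with the mean dim level of 6.19 dashed. The receptor genes pile up at the low end, with a median level of 5.94, and 54.7% of all genes exceeded the dim level on every array.

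The tissue label was checked against 7 markers. The oocyte gene Gdf9, a growth factor that the follicle needs to grow, read 12.86, 12.61 and 12.52 on acetone replicates 1, 2 and 3 (percentile 99.1). Zp3, a zona pellucida protein and the sperm receptor of the egg, read 12.09, 12.22 and 12.17 (percentile 98.5). Both were far above the dim level on all arrays. The stromal proteoglycan gene Dcn read 13.38, 13.25 and 13.24 (percentile 99.6), the surface epithelial keratin gene Krt19 read 10.10, 9.96 and 10.10 (percentile 89.7), and the macrophage lysosomal gene Cd68 read 7.96, 7.92 and 8.10 (percentile 70.8). For each of these markers the arrays lay close together beside the distance to the dim level.

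The granulosa pair lay closer to the dim level. Foxl2, the transcription factor that keeps granulosa cells female, read 6.45, 6.52 and 6.30 (percentile 49.6). Amh, the hormone that growing follicles make, read 6.65, 6.73 and 6.93 (percentile 56.0). Both exceeded the dim level on all 3 arrays, Foxl2 by a margin near the spread between arrays (SD 0.11). Other granulosa genes were bright, among them the AMH receptor gene Amhr2 at 12.29, 12.10 and 12.00 (percentile 98.5). All 7 markers thus exceeded the dim level on all arrays, with the granulosa genes spread over a wide range.

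**Figure D2:**
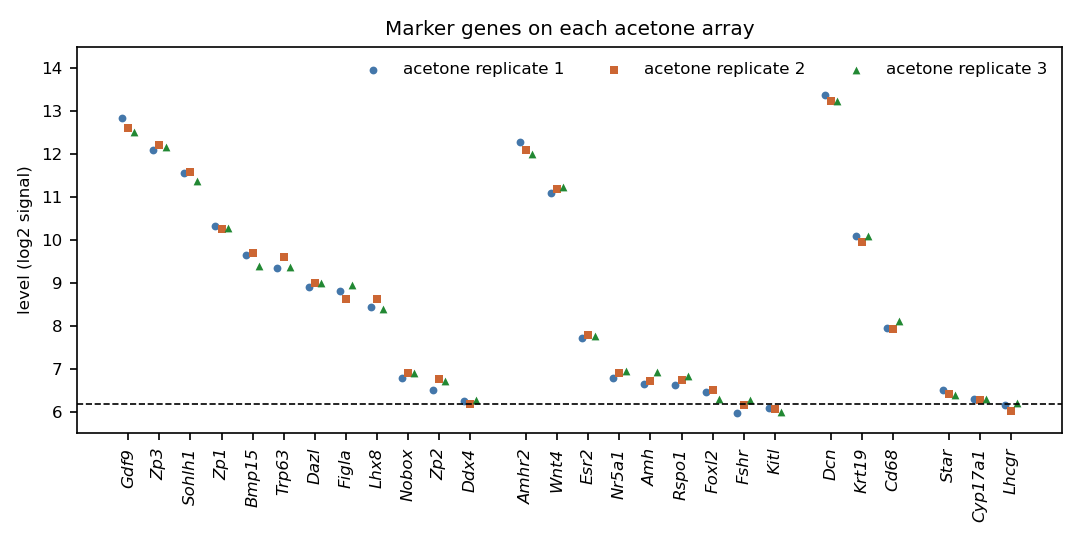
Level on each of the 3 acetone arrays (y axis, log2 signal) of oocyte genes, granulosa genes, the markers of stroma, surface epithelium and macrophages, and steroidogenic genes (left to right), with the mean dim level dashed. Gdf9, Amhr2 and Dcn are the brightest of their groups on every array, while Foxl2, Fshr, Kitl, Star, Cyp17a1 and Lhcgr lie within 0.4 of the dim level.

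Oocyte genes of the maternal store were among the highest members of the cell type lists. Ooep, an organiser of the subcortical maternal complex that early embryos depend on, read 13.85, 13.98 and 13.91 (rank 26 of 17889). Padi6, an enzyme family member of the oocyte's cytoplasmic lattices, read 13.72, 13.80 and 13.62 (rank 35). Nlrp14 averaged 13.41 ± 0.13 and Nlrp5, another member of the maternal complex, 12.89 ± 0.10 (SD, n = 3). All 4 were among the 100 highest named genes, and the arrays of each lay within about 0.3 of each other.

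The promoters of a zona gene and of the brightest maternal genes are shown because the oocyte factor FIGLA, whose gene is described further on, acts in the mouse through E-boxes of zona genes. The sequences are the 250 bases before the transcription start, from RefSeq on GRCm38.p6, read on the gene's own strand, and capitals mark the E-box pattern CANNTG, which reads the same on both strands. Zp3 (chr5:135979855-135980104, + strand) holds 3 of them, Ooep (chr9:78378589-78378838, - strand) holds 1 and Padi6 (chr4:140742644-140742893, - strand) holds 2.
Zp3: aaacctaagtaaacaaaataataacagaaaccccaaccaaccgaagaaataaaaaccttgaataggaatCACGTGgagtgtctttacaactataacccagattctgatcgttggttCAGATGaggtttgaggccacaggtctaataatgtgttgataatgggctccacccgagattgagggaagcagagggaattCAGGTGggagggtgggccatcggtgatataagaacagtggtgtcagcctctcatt
Ooep: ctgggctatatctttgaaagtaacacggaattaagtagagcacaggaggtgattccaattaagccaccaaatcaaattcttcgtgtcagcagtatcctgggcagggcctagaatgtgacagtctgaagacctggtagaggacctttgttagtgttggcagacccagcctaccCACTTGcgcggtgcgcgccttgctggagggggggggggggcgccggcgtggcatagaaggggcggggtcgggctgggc
Padi6: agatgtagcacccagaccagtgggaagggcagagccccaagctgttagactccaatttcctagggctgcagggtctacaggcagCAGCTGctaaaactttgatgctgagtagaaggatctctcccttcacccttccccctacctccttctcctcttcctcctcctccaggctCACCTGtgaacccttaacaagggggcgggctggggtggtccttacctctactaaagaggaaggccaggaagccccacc
Over windows from 250 bases before to 50 bases after the start, 40 of 42 genes of the 3 oocyte lists with a RefSeq promoter (95.2%) hold the pattern in at least 1 promoter, beside 75% of all 27025 genes of the table and 71.5% of the 13684 measured ones. Per promoter the shares are 90.9% for the oocyte lists and 72.3% for the whole table. The pattern is common, and a match describes letters and not a bound site.

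Of 11 measured zona and oocyte-secreted genes, 9 exceeded the dim level and 3 lay in the brightest 10% of genes, Gdf9, Zp3 and Zp1. Of all genes, 54.7% exceeded the dim level, and the brightest class holds 10% of them by construction. The median percentile of the list was 77.5, and 76.9 to 78.3 between arrays. Zp1, which crosslinks zona filaments, read 10.33, 10.25 and 10.29, and Bmp15, the partner of GDF9, read 9.65, 9.71 and 9.39. Zp2, the remaining structural zona gene measured, had a dim probe at 6.52, 6.76 and 6.71 (percentile 54.3). The oocyte-secreted Oosp1 averaged 8.87 ± 0.17 and Oosp2 8.67 ± 0.08, while Oosp3 at 6.25 and the phospholipase gene Pla2g2c at 6.07 did not pass the dim level on every array.

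Among 11 measured oocyte transcription factors 7 (63.6%) exceeded the dim level, beside 54.7% of all genes (median percentile 57.4). Sohlh1, which drives early follicle formation, was the brightest at 11.56, 11.59 and 11.38 (percentile 97.1). Figla, the activator of zona genes, read 8.82, 8.62 and 8.96, and Lhx8, required for primordial oocytes, read 8.45, 8.63 and 8.40. The pluripotency factor gene Pou5f1 averaged 9.04. Nobox, a homeobox factor of the same network, was near the dim level at 6.79, 6.90 and 6.90, as was Sohlh2 at 6.32. Gtf2a1l at 5.87 and Tbx18 at 5.76 lay below it.

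The germ cell and maternal-effect list had 32 measured members, of which 24 exceeded the dim level and 7 lay in the brightest 10% (median percentile 74.4). Beside Ooep, Padi6, Nlrp14 and Nlrp5, these 7 were Dppa3, a protector of the maternal methylation imprint, at 12.38, Tle6 of the maternal complex at 12.34 and Oas1d at 12.19. Dazl, an RNA-binding regulator of germ cells, read 8.90, 8.99 and 9.0. Ddx4, the helicase that serves as the general germ cell marker, had 3 probes, and its brightest read 6.24, 6.19 and 6.28, at the edge of the dim level. The germ cell survival gene Nanos3 (5.92) and Oog3 (5.87) lay below it, and the receptor gene Kit was not measured here. Trp63, whose oocyte isoform guards the genome of resting oocytes, read 9.36, 9.60 and 9.37 (percentile 84.7).

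Genes of meiotic prophase had a lower median percentile than the oocyte lists, 44.4, which is below the middle of all genes. Of 20 measured, 10 (50.0%) exceeded the dim level, near the 54.7% of all genes, and 0 lay in the brightest 10%. The recombination and synapsis genes Dmc1 (5.84), Sycp3 (5.89), Sycp1 (5.98) and Spo11 (6.15) did not pass, and neither did Stra8 (5.98), which retinoic acid induces at the entry into meiosis. The cohesin gene Smc1b, which holds chromosomes of arrested oocytes together, was the brightest member at 9.09, 9.20 and 9.18, followed by the mismatch repair gene Mlh3 at 8.20.

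Granulosa and pregranulosa genes spread over the whole range. Of 35 measured, 29 exceeded the dim level and 6 lay in the brightest 10% (median percentile 62.6, 61.5 to 63.8 between arrays). Besides Amhr2, the 6 included the inhibin subunit gene Inha at 11.65 ± 0.05 and the estrogen-induced Greb1 at 11.18 ± 0.04. Wnt4, the ligand that supports ovarian development, read 11.09, 11.20 and 11.25, and its partner signal Rspo1 read 6.63, 6.74 and 6.83. The estrogen-forming genes split, with Hsd17b1 at 9.79 and Cyp19a1, the aromatase, at 6.55. Fshr, the receptor for follicle-stimulating hormone, read 5.98, 6.15 and 6.27 and did not pass on every array, and neither did Kitl, which signals to the oocyte through KIT, at 6.08, 6.07 and 5.99. Lhx2 (5.94) and Nr0b1 (5.89) were the lowest members.

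Theca and steroidogenic genes were the dimmest of the follicular lists. Of 18 measured, 6 exceeded the dim level and 0 lay in the brightest 10%, with a median percentile of 39.7 and 30.7 to 42.1 between arrays. With the dim level at the 99th percentile of the receptor genes 4 members passed, and with the mean of the arrays set against the mean dim level 9 did. Star, which moves cholesterol into mitochondria, read 6.52, 6.42 and 6.40, Cyp17a1, the androgen-forming enzyme, read 6.30, 6.27 and 6.29, and Hsd3b1 read 6.28, 6.52 and 6.36. These 3 passed on all arrays by small margins. The luteinizing hormone receptor gene Lhcgr (6.13), Cyp11a1 (6.30), Insl3 (5.88) and the electron carrier gene Fdx1 (5.82) did not. The members that were brighter, Fdxr at 8.35, Scarb1 at 7.27 and Akr1c18 at 7.15, encode an electron carrier reductase, a lipoprotein receptor and a progesterone-inactivating enzyme, and work in other cells too.

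Stroma and mesenchyme genes had the highest median of the cell type lists with the brightest probe per gene. With the mean of all probes of a gene their median percentile was 78.8, below the 82.5 of the zona and oocyte-secreted list. Of 28 measured, 26 exceeded the dim level and 14 lay in the brightest 10%, and the median percentile was 89.0 (88.7 to 89.0 between arrays). The matrix genes Dcn at 13.29 ± 0.08, Sparc at 13.27 ± 0.08, Col6a1 at 13.06 ± 0.09 and Mgp at 12.99 ± 0.11 were among the 100 highest named genes. The growth factor receptor gene Pdgfra of mesenchymal cells averaged 11.60 and the fibrillar collagen gene Col1a1 11.17. Postn, a matrix protein gene, at 5.96 did not pass.

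Of 26 measured surface epithelium and mesothelium genes, 21 exceeded the dim level and 2 lay in the brightest 10% (median percentile 64.4). These 2 were Gata6, a transcription factor that other ovarian cells also use, at 11.26 ± 0.03 and the uroplakin gene Upk3b at 10.32 ± 0.09. Krt8 averaged 9.66 and the retinoic acid-forming enzyme gene Aldh1a2 9.61. The mesothelial genes Msln (6.00) and Lrrn4 (5.98) did not pass.

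Vascular and blood genes differed among themselves. Of 20 endothelial genes 13 (65.0%) exceeded the dim level, beside 54.7% of all genes, with a median percentile of 48.8. The brightest were the receptor partner Ramp2 at 10.85 and the adhesion gene Esam at 9.37. The growth factor receptor genes Kdr (5.96) and Flt1 (5.94) and the lymphatic gene Lyve1 (5.90) did not pass. Smooth muscle and pericyte genes had 10 of 15 members (66.7%) above the dim level. Tpm1 at 12.82, Acta2 at 12.09 and Mylk at 10.45 were the brightest, all of them used beyond smooth muscle as well. Genes of the contractile apparatus and cytoskeleton went both ways. Smtn (9.03), Myh11 (7.61), Des (7.18) and Actg2 (7.06) passed, while Tagln (6.19), Lmod1 (5.99), Cnn1 (5.96) and Synpo2 (5.94) did not pass on every array. Globin genes were at the bottom, with Hba-a1 at 5.93, Hbb-y at 5.89 and Hbb-bh1 at 5.85, and 4 of 14 erythroid and platelet genes passed, the brightest being the widely used transferrin receptor gene Tfrc at 10.58. The other members that passed were Alas2 (7.71), Pf4 (6.74) and Itga2b (6.70). The median percentile of this list, 25.9, was the lowest of the 12 cell type lists. The lists of fat (21.1), skeletal muscle (23.6) and Y-linked genes (19.0) lay lower still.

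Macrophage and leukocyte genes were uneven. Of 29 measured, 18 (62.1%) exceeded the dim level and 3 (10.3%) lay in the brightest 10% (median percentile 60.2). These shares are near the 54.7% and 10% of all genes. Lyz1 read 13.27, 13.48 and 13.30 and Lyz2 12.23, 12.36 and 12.31. These lysozyme genes are near-identical copies whose probes may share RNA, so their separate levels are uncertain. The endotoxin co-receptor gene Cd14 averaged 10.20, the lysosomal gene Laptm5 10.09, the macrophage surface gene Adgre1 7.80 and the growth factor receptor gene Csf1r 6.80. The common leukocyte gene Ptprc (5.98), Itgam (5.88) and Fcer1g (5.80) did not pass.

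Genes of neighbouring and foreign tissues were measured for the same arrays. Of 18 genes of the oviduct, rete and mesonephric epithelium, 11 (61.1%) exceeded the dim level, beside 54.7% of all genes. The secreted antimicrobial genes Lcn2 at 11.51, 11.47 and 11.54 and Ltf at 10.98, 10.85 and 10.81 lay in the brightest 10%. The duct transcription factor genes Pax8 (6.14), Pax2 (5.91) and Hoxa11 (5.90) did not pass. Fat had 2 of 12 members above the dim level, skeletal muscle 2 of 11, nerve and glia 3 of 13, and liver and gut 4 of 13, with median percentiles of 21.1, 23.6, 30.2 and 31.5. The brighter exceptions were Lpl (11.48), a lipase gene that macrophages also use, and Trf (9.65), the iron carrier gene. The defining markers Adipoq (6.03), Acta1 (5.86), Nefl (5.83) and Alb (5.87) lay below the dim level.

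The sex of the tissue was read from X- and Y-linked genes. Xist, the RNA that silences an X chromosome in female cells, read 9.16, 9.26 and 9.10 (percentile 82.3). Of 8 Y-linked genes, Sry (5.98), Eif2s3y (5.84) and Usp9y (5.83) were among the 6 that did not pass. Ddx3y did, at 6.64, 6.60 and 6.69, but its other probes averaged 5.91 and 5.90, and Uty passed at 6.5. Of 10 genes of testis somatic cells 7 passed, of which the granulosa genes Amh and Dhh are shared with the ovary, and the tight junction gene Cldn11 was the brightest at 10.78. The genes of the male pathway Sox9 (7.16, 7.02 and 7.12), Fgf9 (mean 6.47) and Sox8 (mean 6.41) also passed on every array, while Dmrt1, which maintains the male identity of Sertoli cells, at 5.93, Hsd17b3 at 5.98 and Insl3 at 5.88 did not.

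**Figure D3:**
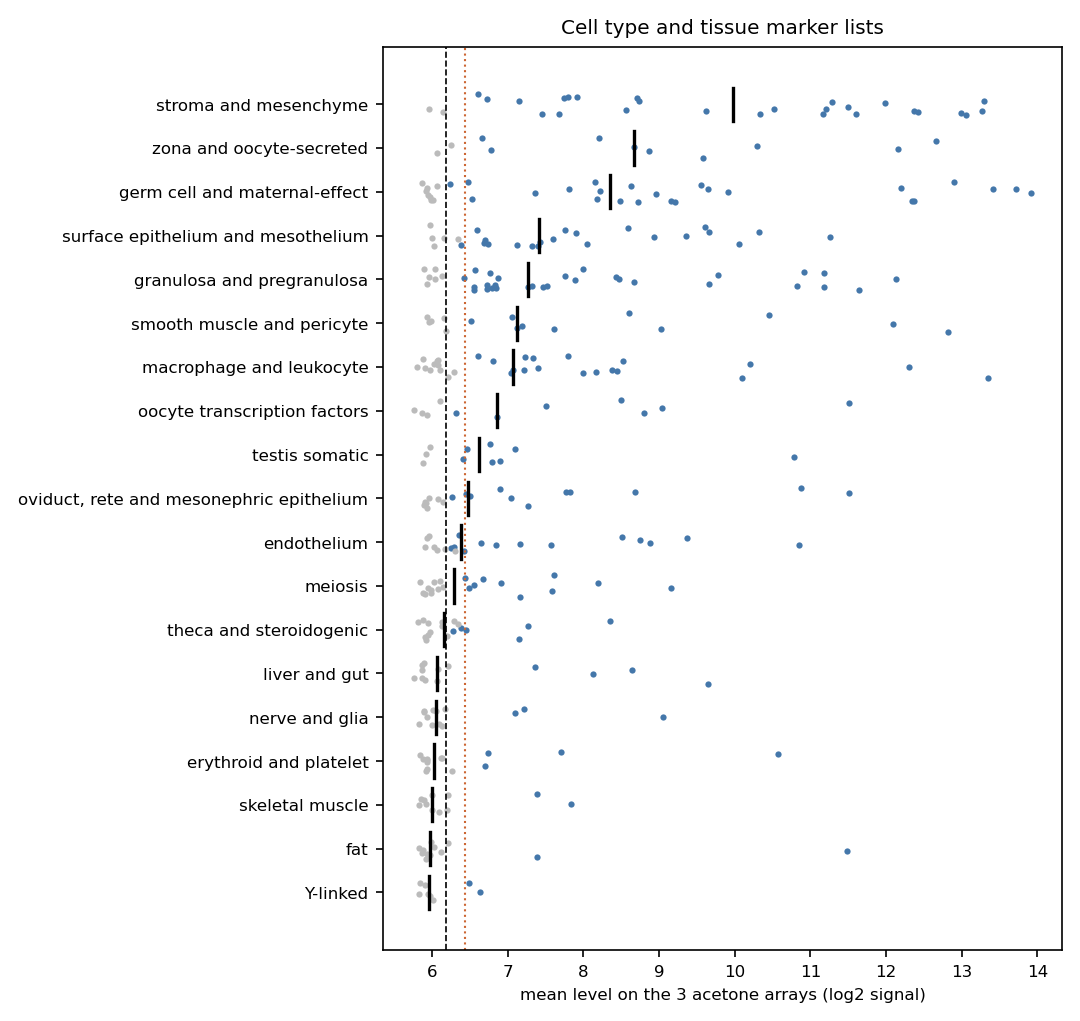
Mean level on the 3 acetone arrays (x axis, log2 signal) of each measured member of the 19 cell type and tissue lists, ordered by list median (black bar), with members above the dim level on every array in blue and the others in grey. The dashed line is the dim level (6.19) and the dotted line the median of all genes (6.44), and with the brightest probe per gene the stroma list has the highest median, 9.98, and the Y-linked list the lowest, 5.96.

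By function, the protein synthesis machinery gave the brightest signals. Of the 20 highest named genes 14 encode ribosomal proteins, and of the 100 highest, 32. Rpl9 of the large subunit had the highest level of the array, 14.48, 14.37 and 14.48, and Eef1a1, the factor that brings aminoacyl-tRNA to the ribosome, ranked at 3 with 14.35, 14.28 and 14.35. The rest of the 20 included Rps4x, Rps9, Rplp1, Rpl38, Rpl41, Rps19, Rpl35, Rps12, Rpl37, Rps26 and Rpl28, the ubiquitin gene Ubb (14.21) and its copy Ubb-ps (14.09), the iron store gene Fth1 (14.17), the prolyl isomerase gene Ppia (14.04) and the tubulin gene Tuba1b (13.96). Ribosomal protein genes have many near-identical pseudogenes, and Ubb and Ubb-ps share sequence, so their separate levels are uncertain.

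The transcripts of ribosomal proteins and of Eef1a1 are known for a run of pyrimidines that follows a C at their very 5′ end and through which growth signals set their translation. The 30 bases around the RefSeq start (GRCm38.p6, 15 on each side, on the gene's own strand) are shown for Eef1a1 and 5 of the ribosomal protein genes in the 20 highest. These hold, within 5 bases of the start, a C that at least 5 pyrimidines follow, and the run from that C on is in capitals. Pyrimidines may also lie before that C, as in Rpl35, where further C bases precede the capitals. They lie at chr9:78481710-78481739 (-) for Eef1a1, chr7:3704026-3704055 (+) for Rps9, chr11:114668565-114668594 (+) for Rpl38, chr2:39005117-39005146 (-) for Rpl35, chr10:128626492-128626521 (-) for Rps26 and chr7:4792950-4792979 (+) for Rpl28.
Eef1a1: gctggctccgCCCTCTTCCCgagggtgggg
Rps9: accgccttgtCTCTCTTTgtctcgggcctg
Rpl38: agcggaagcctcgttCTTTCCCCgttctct
Rpl35: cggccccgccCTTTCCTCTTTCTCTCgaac
Rps26: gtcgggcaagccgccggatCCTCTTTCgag
Rpl28: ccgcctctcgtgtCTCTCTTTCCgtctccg
On the gene's strand such a run occurs in 21 of 44 measured ribosomal protein genes with a RefSeq promoter (47.7%), against 11.9% of all 27025 genes of the table. Per promoter the share is 43.1% for ribosomal protein genes, against 10.2% of all 32851 promoters. A match is a description, and no match says only that these letters are not in the window.

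Of 55 measured ribosomal protein genes, 49 exceeded the dim level and 45 lay in the brightest 10%, and the median percentile was 99.6. The 6 others were Rpsa, Rpl6, Rpl14, Rplp2, Rps23 and Rpl17, at mean levels from 5.91 to 6.30. Cells need every one of these proteins, so a probe at the dim level is no measure that a gene is off. The same holds for the glycolytic gene Pgk1 (6.08) and the chaperone gene Canx (5.78), which did not pass either. Of the 14 genes measured from a housekeeping panel 12 exceeded the dim level, with the cytoskeletal Actb at 12.95, 12.77 and 12.83 and the glycolytic Gapdh at 12.63, 12.76 and 12.72.

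Energy genes followed. Of 41 measured oxidative phosphorylation genes 39 exceeded the dim level and 28 lay in the brightest 10% (median percentile 96.5), led by the ATP synthase genes Atp5g3 at 13.91 ± 0.10 and Atp5b at 13.63 ± 0.05 and the complex III gene Uqcrh at 13.08 ± 0.07. Ndufs1 (5.77) and Uqcrq (5.93), subunits of complexes I and III, did not pass. Of 25 glycolysis and hypoxia genes 22 passed and 10 lay in the brightest 10% (median percentile 82.7), with Tpi1 at 13.06, Eno1 at 12.97 and the lactate-forming Ldha at 12.77. The vessel growth factor gene Vegfa averaged 11.09 ± 0.03, and the hypoxia-induced Bnip3 lay at 5.85.

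Proliferation genes were well represented. Of 34 measured, 29 exceeded the dim level and 8 lay in the brightest 10% (median percentile 81.8). The replication helicase gene Mcm4 averaged 11.36 ± 0.05, the cyclin gene Ccnd3 11.36 ± 0.08 and the mitotic survivin gene Birc5 10.91 ± 0.04. The cell cycle inhibitor gene Cdkn1c averaged 11.18 ± 0.03 and Cdkn1a 8.75 ± 0.10, and Cdkn1b, which restrains resting oocytes, had 3 probes of which the brightest read 6.33, 6.34 and 6.34. Cdk6 (5.88) and the mitotic cyclin gene Ccnb2 (5.77) did not pass.

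The medium held ligands for several receptor families. Of 20 measured receptor and downstream genes, 15 exceeded the dim level and 5 lay in the brightest 10% (median percentile 61.5). The receptors for basic fibroblast growth factor, Fgfr1 at 6.73, 6.66 and 6.67 and Fgfr2 at 7.07, 6.98 and 6.96, passed on all arrays, and Fgfr3 (5.92) did not. For leukemia inhibitory factor, the shared signalling chain Il6st read 6.75, 6.77 and 6.78, and the specific chain Lifr, at 6.37, 6.31 and 6.20, did not pass on replicate 3. The insulin receptor gene Insr read 7.63, 7.76 and 7.42 and the transferrin receptor gene Tfrc 10.53, 10.65 and 10.55. The brightest of the list were signalling genes inside the cell, the insulin receptor adaptor Grb10 (percentile 97.2), Stat3 and its inhibitor Socs3 (both at percentile 95.2).

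For the PI3K pathway of follicle activation, 19 of 24 genes exceeded the dim level and 7 lay in the brightest 10% (median percentile 77.7). The ribosomal protein gene Rps6 (13.18), whose product marks active signalling when phosphorylated, the mTOR activator Rheb (11.25) and the regulatory subunit Pik3r1 (10.99) were bright. Foxo3, which holds mouse primordial follicles at rest, read 6.24, 5.81 and 5.92, and its 3 arrays lay on both sides of the dim level. Foxo4 (5.87) and Akt1 (6.13) did not pass, and the related Foxo1 averaged 9.03.

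Among 36 measured TGF-beta family genes 30 exceeded the dim level and 6 lay in the brightest 10% (median percentile 74.6). Besides the ligand gene Gdf9 and the receptor gene Amhr2, the receptors Tgfbr1 (11.54 ± 0.06) and Tgfbr2 (10.73 ± 0.14) were bright. Tgfbr1 is also the type I receptor of GDF9. Of the BMP receptors, the type I gene Bmpr1b averaged 7.80 ± 0.18, and Bmpr2, the type II receptor that BMP15 and GDF9 share, averaged 6.23 ± 0.14 and did not pass on every array. The receptor gene Acvr1b (5.90) and the inhibitor Smad7 (5.89) were the lowest. Of 36 Notch, WNT and hedgehog genes 24 (66.7%) passed, beside 54.7% of all genes, and 4 (11.1%) lay in the brightest 10% (median percentile 56.3). They were led by the WNT effector Ctnnb1 at 11.37, and the secreted WNT inhibitor Sfrp1 averaged 10.59. The Notch partners of follicle formation, the receptor gene Notch2 (5.98) and the ligand gene Jag1 (6.23), did not pass, while the Notch target genes Hey1 (9.11) and Hes1 (8.87) did.

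Nuclear hormone receptor genes were of middle level. Of 15 measured in the steroid hormone receptor list, which also holds thyroid, retinoid and prolactin receptors, 11 exceeded the dim level and 0 lay in the brightest 10% (median percentile 58.2). The estrogen receptor genes read 8.45, 8.44 and 8.32 for Esr1, the form of stroma and surface epithelium, and 7.72, 7.79 and 7.77 for Esr2, the granulosa form. The progesterone receptor gene Pgr, which granulosa cells switch on at ovulation, read 6.35, 6.23 and 6.20 and did not pass on every array, and the glucocorticoid receptor gene Nr3c1 (6.08) and Thrb (5.80) were the lowest.

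Genes that respond to damage were measurable in these ovaries, which were given neither compound. Of 31 apoptosis genes 25 exceeded the dim level and 5 lay in the brightest 10% (median percentile 75.4), among them the initiator caspase gene Casp2 at 10.93 ± 0.14 and the survival gene Mcl1 at 10.76 ± 0.05. The p53 gene Trp53 read 10.03, 9.92 and 10.19 (percentile 89.7), and its killer targets Bax and Bbc3 averaged 9.69 and 8.46. Of 26 DNA repair and checkpoint genes 22 passed and 3 lay in the brightest 10% (median percentile 67.0), led by the strand break sensor gene Parp1 at 11.26 and the end-joining gene Xrcc6 at 11.06. Chek2, which signals oocyte death after damage in mice, averaged 7.10 ± 0.01, Atm 7.44 ± 0.09, and Brca1 (5.97) did not pass.

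The acetone arrays are the baseline against which the treated groups of the series were set, also for genes that sense and metabolise polycyclic hydrocarbons. Of 25 measured, 20 exceeded the dim level and 5 lay in the brightest 10% (median percentile 64.1). The receptor gene Ahr itself read 5.93, 5.94 and 5.94 and did not pass, and its partner Arnt read 6.86, 6.77 and 6.79. Of the activating enzymes, Cyp1b1 read 10.28, 10.36 and 10.43 (percentile 91.9), whereas Cyp1a1 read 5.87, 6.04 and 5.84 (percentile 12.2). The conjugating glutathione transferase genes Gstm2 (13.91 ± 0.06), Gstp1 (12.40 ± 0.13) and Gstm1 (11.87 ± 0.10) were bright, with Gstm1 and Gstm2 close paralogs whose separate levels are uncertain. Gsta1 (5.78) and the receptor target Tiparp (5.84) were the lowest members.

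Chaperone and sterol genes were near the upper end. Of 23 heat shock and endoplasmic reticulum chaperone genes 21 exceeded the dim level and 12 lay in the brightest 10% (median percentile 90.3), with the constitutive Hsp90ab1 at 12.97 ± 0.03 and the disulfide isomerase gene P4hb at 12.75 ± 0.11. The stress-induced Hspa1a was dim at 6.55, and the reticulum chaperone gene Hspa5 read 6.80, 6.76 and 6.81. All 16 measured cholesterol synthesis genes exceeded the dim level and 5 lay in the brightest 10% (median percentile 78.9), from Fdps at 12.49 and Sqle at 11.61, enzymes of the pathway's middle steps, down to the isomerase gene Idi1 at 6.36.

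**Figure D4:**
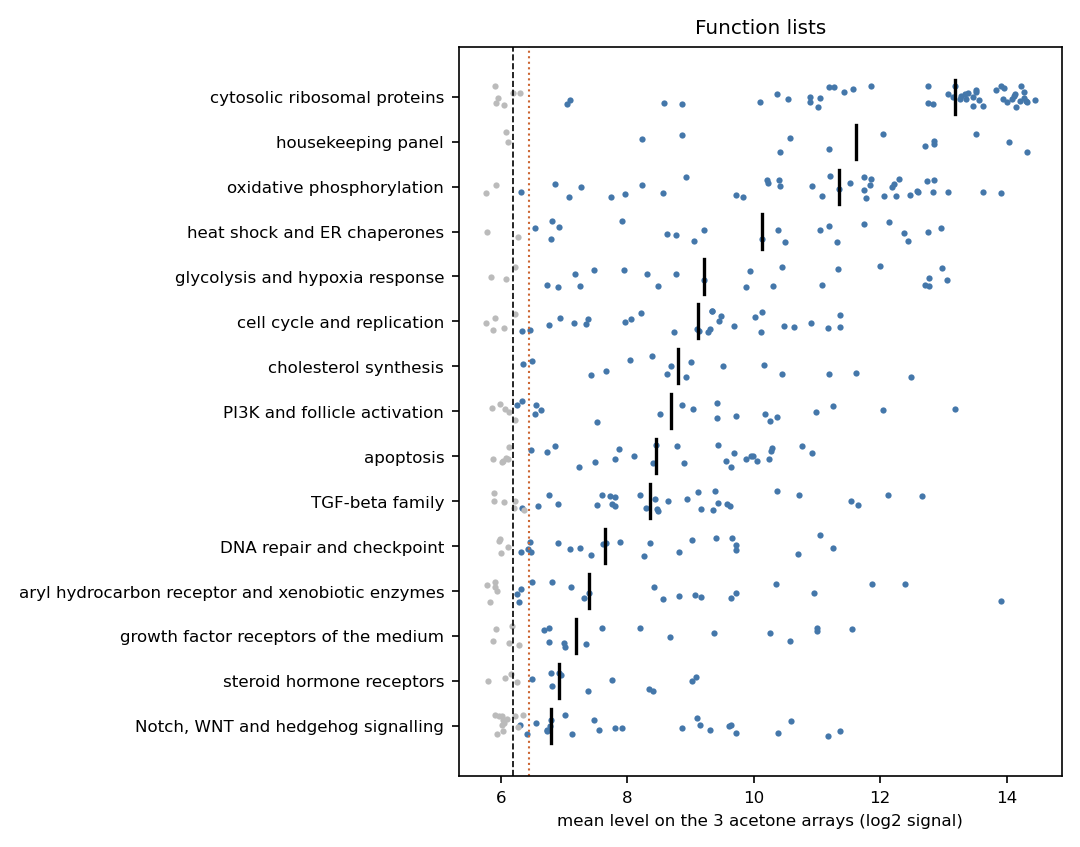
Mean level on the 3 acetone arrays (x axis, log2 signal) of each measured member of the 15 function lists, ordered by list median (black bar), with members above the dim level on every array in blue and the others in grey. The dashed line is the dim level (6.19) and the dotted line the median of all genes (6.44), and medians run from 13.18 for ribosomal proteins to 6.79 for Notch, WNT and hedgehog genes.

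Over all lists, 733 of 806 genes were measured and 537 of them (73.3%) exceeded the dim level, beside 54.7% of all genes. List medians lay above percentile 50 for 25 of the 34 lists. The probe taken matters to single genes. Of 3578 genes with at least 2 probes whose brightest passed, the brightest exceeded the dimmest by a median of 1.39, and the dimmest probe did not pass in 1850 of them (51.7%).

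Agreement between the acetone arrays was close. Pearson correlations across genes, which are not independent replicates, ran from 0.9958 to 0.997 between pairs of arrays, and Spearman correlations from 0.951 to 0.958. Among the 9785 genes above the dim level the median SD was 0.088 log2 units, and 444 genes (4.54%) had an SD over 0.2 and 27 an SD over 0.3. With this processing the median SD changed little with level, lying between 0.075 and 0.094 in every 10% of genes ordered by level. In other settings it was smaller over all genes than over those above the dim level. The values were 0.048 and 0.065 with no background correction, 0.062 and 0.075 in the authors' deposited log2 values, and 0.154 and 0.202 under scaling to one median signal. For the 9785 genes above the dim level, processed as here, the median SD was 0.135 between DMBA arrays and 0.102 between BaP arrays, a difference that was not tested. Under scaling to one median signal in place of quantile normalization the order turned, with 0.202 between acetone, 0.172 between DMBA and 0.107 between BaP arrays. The raw median signal of acetone replicate 2 was 133.7, beside 105.8 and 109.9 on replicates 1 and 3.

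**Figure D5:**
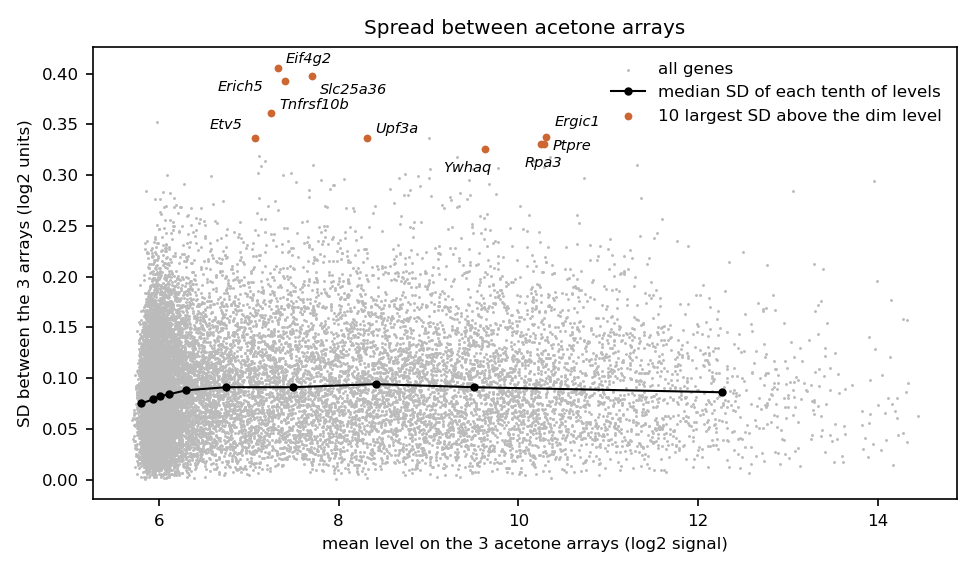
SD between the 3 acetone arrays (y axis, log2 units) against mean level (x axis, log2 signal) for all genes, with the median SD of each 10% of genes by level as a line and the 10 named genes of the largest SD above the dim level in orange (clone and prediction names left out). The line stays between 0.075 and 0.094, and Eif4g2 has the largest SD, 0.406.

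The gene with the largest spread above the dim level was Eif4g2, a translation initiation factor, which read 7.73, 7.32 and 6.92 on acetone replicates 1, 2 and 3. Its other probe read 6.90, 7.00 and 6.94. The difference between arrays was thus seen by the brighter probe and not by the dimmer. Slc25a36, a mitochondrial nucleotide carrier gene, read 8.06, 7.77 and 7.27, low on replicate 3, while Erich5, at 7.17, 7.18 and 7.85, and the death receptor gene Tnfrsf10b, at 6.93, 7.16 and 7.64, were high there. The replication protein gene Rpa3 (10.06, 10.07 and 10.64), the mRNA decay gene Upf3a (8.07, 8.17 and 8.69) and the phosphatase gene Ptpre (10.04, 10.16 and 10.66) were also high on replicate 3. The transcription factor gene Etv5 (7.28, 7.26 and 6.69) was low there, and Ergic1 and Ywhaq had SDs of 0.338 and 0.326. Of the 100 named genes with the largest SD above the dim level, 42 were highest on replicate 1, 7 on replicate 2 and 51 on replicate 3. Of all genes above the dim level, 32.6%, 32.0% and 35.4% were highest on these arrays. The lowest value of the same 100 genes fell on replicate 1 for 32, on replicate 2 for 31 and on replicate 3 for 37.

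At the other end, the 10 named genes of the smallest SD above the dim level had SDs of 0.001 to 0.004. They include Eif4ebp1, the translation repressor that mTOR inactivates, at 10.37 on every array, the actin-bundling Pls3 at 8.31, 8.32 and 8.32 and the elongation inhibitor Hexim1 at 8.73, 8.74 and 8.73, beside Ccdc61, Zfp870, Dcun1d5, Ube2e3, Defb25, Celf4 and Sox12. Whether these genes are steadier than others was not tested, and 3 arrays give little precision to a single SD.

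Members of some functional groups were highest on the same array more often than all genes were. Of 39 oxidative phosphorylation genes above the dim level, 25 (64.1%) were highest on acetone replicate 3, beside 35.4% of all genes above it. Of 49 ribosomal protein genes 23 (46.9%) were highest there, and of 22 glycolysis and hypoxia genes 5 (22.7%), with 10 highest on replicate 1. Median scaling put 86.3% of all genes highest on replicate 2 and 6.65% on replicate 3. Under it 2 of the 39 oxidative phosphorylation genes (5.13%) were highest on replicate 3, near the share of all genes, and 18 of the 49 ribosomal protein genes (36.7%), above that share. The sizes were small, with a median deviation of 0.093 from the 3-array mean for oxidative phosphorylation genes on replicate 3 and 0.047 for ribosomal protein genes. Whether array, RNA or tissue differed between the replicates was not tested.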

How the data were processed

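RNA from cultured ovaries was measured on Illumina mouse Ref-8 beadchips. Per the file headers, the deposited table of non-normalized probe intensity values is linear and holds no detection p-values. A second deposited table holds the authors' normalized log2 values of the same arrays, and the submitters' processing notes list lumi. The authors' deposited reports give a ratio and a p-value per gene row, of which the ratio served to name probes and the p-value to check the naming. Any subtraction by the scanner software is not stated in these sources.

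To name a probe, the differences between its group means were matched to the log2 of each row's deposited ratios (tolerance 0.0001, next row at least 5 times farther), and 25647 of 25697 probes found a row. The other 50 were left out. As a check, the spread that each deposited p-value implies, which the pairing did not use, tracked the measured spread with Spearman's rho of 0.916 across 6273 probes in the rows taken, against 0.111 in the next nearest rows. Names came from RefSeq of assembly GRCm38.p6 by accession (23690 probes), symbol (852) or synonym (434), while for 671 the deposited name stands.

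In these steps, normexp background correction (offset 50) and quantile normalization over the 9 arrays were run in limma 3.58.1 (R 4.3.3), followed by log2. The brightest probe on the acetone arrays stands for each gene, and values of the dimmer probes are given where a result turns on them. Counts, percentiles, motif searches and plots were made with pandas 2.3.3, numpy 2.4.6, matplotlib 3.10.9 and scipy 1.17.1 under Python 3.11.15. The naming of probes, the order of mean levels and the spread were tested on simulated data, and the counts above the dim level were not. No group was compared by a test. A total of 34 gene lists and a panel of 50 genes, 49 of them measured, were described, and the members and lists were chosen with earlier results of these data known. The named genes are the 20 highest, the 10 with the largest and the 10 with the smallest SD above the dim level (clone and prediction names left out), the 4 highest and 2 lowest members of each list, and the panel. Further list members are named as examples, chosen after their values were seen. Some genes the rule takes are left out of the text.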

Additional observations from a re-analysis of the deposited data

How the results depend on the processing

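The count of genes above the dim level (9785) ran from 8915, with the dim level at the 99th percentile of the receptor genes, to 10499, with the mean of the arrays set against the mean dim level. List members above it (537) ran from 508 to 563 over the same alternatives, and the lists with a median above percentile 50 numbered 25 under every alternative run. Of the median percentiles by list, 227 stayed within their SD between arrays and 45 moved further, 26 of these with the mean of all probes of a gene. Over the alternatives the apoptosis median (75.4) fell as low as 64.5 and that of the PI3K list (77.7) to 69.2, while the erythroid and platelet median (25.9) rose to as much as 31.8. Of the counts by list, 371 were within 1.5 times of the reported value and 3 were not: 4 skeletal muscle genes passed without acetone replicate 1 and with the mean of the arrays, and 1 Y-linked gene with the mean of all probes of a gene. That mean put the stroma median at percentile 78.8, below the zona and oocyte-secreted list at 82.5, and the housekeeping median at 88.2. The median SD between acetone arrays (0.088) was 0.065 with no background correction, 0.202 under median scaling, 0.075 in the authors' deposited log2 values, 0.078 with the mean of all probes, and 0.064 to 0.078 when 1 replicate was left out; the cause of these shifts was not tested, beyond fewer arrays in the last. Signal over background is small near the dim level, so a level there is only an upper bound. The array with the highest value per list and the spread of each group by setting were compared after seeing the data. No paired analysis was possible because no result comes from a test between groups.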

Other observations

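Several of the 100 highest named genes lay outside the lists. They include the metal-binding Mt1 (13.83, 13.91 and 13.84 on acetone replicates 1, 2 and 3), the gap junction gene Gja1 of granulosa cells (13.48, 13.42 and 13.51), the cytokine gene Mif, the thymosin genes Tmsb10 and Tmsb4x, the galectin gene Lgals1, the insulin-like growth factor binding gene Igfbp5 and the antioxidant genes Prdx1, Prdx2 and Sod1. Among the 85 of the 100 highest named genes with a RefSeq promoter, 23.5% hold the pyrimidine run at the start, beside 11.9% of all genes in the table. The 100 include 32 ribosomal protein genes, and of the measured ribosomal protein genes 47.7% hold the run. The share without them was not counted.

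The genes chosen for the largest spread between acetone arrays were also read on the treated arrays. The brighter probe of Eif4g2 ran from 6.92 to 7.73 on acetone arrays, from 8.38 to 8.49 on DMBA arrays and from 8.35 to 8.44 on BaP arrays. Its other probe ran from 6.90 to 7.00, 6.65 to 7.17 and 7.025 to 7.41 in the same order, so the gap was that of 1 probe. Slc25a36, with 1 probe, ran from 7.27 to 8.06, 8.25 to 8.45 and 8.16 to 8.50. How many of all genes have such separate ranges was not counted, and no difference between groups was tested. Tnfrsf10b ran from 6.93 to 7.64 on acetone, 7.23 to 7.89 on DMBA and 7.42 to 7.57 on BaP arrays, and Ptpre from 10.04 to 10.66, 10.10 to 10.78 and 10.53 to 10.66. The 4 dimmer probes of Tnfrsf10b had SDs of 0.054 to 0.22 between acetone arrays, against 0.361 for the brightest, and those of Ptpre 0.118 and 0.129, against 0.331.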
